A study of Mus musculus with 49 samples.

Results

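The 9 genes described here encode enzymes of glucose breakdown and glucose synthesis. The glycolytic members were the hexokinases Hk1 and Hk2, the platelet-type phosphofructokinase Pfkp, the pyruvate kinase Pkm, and the lactate dehydrogenase subunits Ldha and Ldhb. The gluconeogenic members were the cytosolic phosphoenolpyruvate carboxykinase Pck1, the catalytic subunit of glucose-6-phosphatase G6pc, and the fructose-1,6-bisphosphatase Fbp1. They were chosen by name, as the genes of the deposited expression table whose symbol equals that of a member. All 9 were found among its 43309 genes, and all 9 were among the 14895 genes kept for testing.

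The series followed the whole-kidney transcriptome of C57BL/6NCrl mice after bilateral ischemia-reperfusion injury (IRI), by sequencing of poly(A) RNA in 49 libraries of 16 groups. The IRI mice were males of 10 to 12 weeks whose renal pedicles were both clamped for 21 minutes, and their kidneys were taken after 2, 4, 24, 48 and 72 hours (IRI2h, IRI4h, IRI24h, IRI48h, IRI72h), after 7, 14 and 28 days (IRI7d, IRI14d, IRI28d), and after 6 and 12 months (IRI6mN, IRI12m). Sham mice had the same operation without clamping and were examined after 4 hours, 24 hours and 12 months (SHAM4h, SHAM24h, SHAM12m), and mice without any surgery were 3, 9 and 15 months old (NORM3m, NORM9m, NORM15m). IRI6mN held 4 libraries and each of the other 15 groups held 3. No group carried a transgene or a mutation, and every library was made from the kidney as a whole, in which fewer cells of a type and less RNA per cell cannot be told apart.

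Glycolysis splits glucose into pyruvate, and lactate dehydrogenase interconverts pyruvate and lactate. Gluconeogenesis runs the shared steps backwards and replaces the irreversible ones with enzymes of its own, among them the 3 gluconeogenic members here. In the kidney, gluconeogenesis takes place in the proximal tubule, which burns fatty acids and makes glucose from lactate, glutamine and glycerol, whereas glycolysis is used mainly by the distal segments and by cells other than tubule cells.

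The values are FPKM, in which the reads of a gene are scaled by its length and by the size of the library, so that levels can be compared between genes per length. The reads behind the values fell into 3 depth sets, with 10.6 to 23.7 M reads (megareads) in the 13 libraries of NORM3m, NORM9m, NORM15m and IRI6mN, 38.2 to 52.2 M reads in the 30 libraries of SHAM4h, SHAM24h and IRI2h to IRI28d, and 70.1 to 88.5 M reads in the 6 libraries of SHAM12m and IRI12m. A comparison of IRI6mN with SHAM12m, or of a sham group or IRI12m with unoperated kidneys, therefore lay across depth sets, and depth and group cannot be told apart there. By their 500 most variable genes, 46 of 49 libraries lay nearest to a library of their own group. The exceptions were IRI72h replicate 2, which lay nearest to an IRI7d library, IRI14d replicate 2, which also lay nearest to an IRI7d library, and NORM15m replicate 1, which lay nearest to a NORM9m library. For SHAM12m replicate 3 the source label reads IRI, whereas its title, description and surgery label read sham, and it was taken as sham. Proximal tubule markers, among them the apical receptors Lrp2 and Cubn and the phosphate transporter Slc34a1, were present in all 49 libraries, with a summed level of 6165 to 9973 FPKM in the control kidneys. The median change of all tested genes was 0.18 on the log2 scale in IRI24h and 0.17 in IRI7d relative to SHAM24h, and the changes of the members at these times stand against it. It was 0.33 in IRI24h against IRI4h, −0.14 in IRI48h against IRI24h, 0.18 in IRI7d against IRI72h, 0.18 in SHAM24h against SHAM4h, −0.11 in SHAM4h against NORM3m and 0.14 in IRI12m against NORM15m, and it was within 0.1 of 0 in the other comparisons.

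The start regions of the members whose levels moved most are shown here, since Hk2 and the 3 gluconeogenic genes gave the largest changes of the series among the members. The windows are those of RefSeq on GRCm38.p6 and run from 250 bases before to 50 bases after the annotated start, 5′ to 3′ on the strand of the gene. Capitals mark matches, on either strand, to ACGTG (the core recognised by hypoxia-inducible factors) or ACGTCA (a half-site of the cAMP response element).
Hk2: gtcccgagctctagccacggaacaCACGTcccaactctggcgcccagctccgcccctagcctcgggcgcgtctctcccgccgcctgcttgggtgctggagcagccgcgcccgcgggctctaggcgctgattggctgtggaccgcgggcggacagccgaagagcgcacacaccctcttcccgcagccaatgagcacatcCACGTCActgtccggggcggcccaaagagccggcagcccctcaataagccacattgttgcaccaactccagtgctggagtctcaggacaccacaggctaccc
Pck1: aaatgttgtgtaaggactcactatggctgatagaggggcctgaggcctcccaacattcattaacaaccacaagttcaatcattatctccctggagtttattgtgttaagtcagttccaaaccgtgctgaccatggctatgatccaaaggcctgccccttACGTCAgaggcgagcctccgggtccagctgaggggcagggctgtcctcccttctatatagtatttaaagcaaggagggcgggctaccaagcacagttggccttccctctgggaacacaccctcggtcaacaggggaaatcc
G6pc: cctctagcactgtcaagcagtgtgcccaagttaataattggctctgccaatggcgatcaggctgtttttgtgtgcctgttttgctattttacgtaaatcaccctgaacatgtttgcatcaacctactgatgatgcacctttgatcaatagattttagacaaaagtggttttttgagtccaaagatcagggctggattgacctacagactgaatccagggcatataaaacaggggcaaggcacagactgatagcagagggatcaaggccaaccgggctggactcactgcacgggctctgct
Fbp1: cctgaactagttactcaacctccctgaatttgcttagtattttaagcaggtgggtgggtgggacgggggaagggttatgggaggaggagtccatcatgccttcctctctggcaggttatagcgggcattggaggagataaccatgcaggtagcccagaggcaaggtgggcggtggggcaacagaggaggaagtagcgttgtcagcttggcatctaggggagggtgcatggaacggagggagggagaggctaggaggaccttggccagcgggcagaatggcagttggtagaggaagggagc
The windows lie at chr6:82774405-82774704 on the minus strand for Hk2, chr2:173152823-173153122 on the plus strand for Pck1, chr11:101367466-101367765 on the plus strand for G6pc, and chr13:62888233-62888532 on the minus strand for Fbp1. With the annotated start counted as base 1 and the base before it as −1, the Hk2 window held ACGTG read on the opposite strand from positions −226 and −52, and the latter overlapped ACGTCA at −51 by all but 1 of its bases. The Pck1 window held ACGTCA from −91, and the G6pc and Fbp1 windows held neither motif. Of all 32851 windows of this length, 19.6% held ACGTG and 7.51% held ACGTCA, each on either strand. Among the 12 windows of the 9 members, ACGTG was found for Hk1, Hk2, Ldha and Pkm, and ACGTCA for Hk2, Ldha, Pck1 and Pkm. The windows of Ldhb and Pfkp held no match. These matches describe letters in a window and were not tested as binding sites.

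The members differed widely in level and in how far they moved over the 16 groups. G6pc spanned 41.0-fold, from a group mean of 24.0 FPKM in IRI24h to 983 FPKM in SHAM4h, and Hk2 spanned 29.5-fold, from 0.108 FPKM in SHAM12m to 3.18 FPKM in IRI7d. Pck1 spanned 6.70-fold, with its lowest mean in NORM9m and its highest in IRI72h, and Fbp1 spanned 4.95-fold, with its lowest mean in IRI24h and its highest in IRI12m. The other 5 members moved within a narrow band, 3.32-fold for Pfkp, 2.27-fold for Ldhb, 2.15-fold for Pkm, 2.08-fold for Hk1 and 1.66-fold for Ldha. When the 16 groups were ordered by mean level, the ranges of neighbouring groups overlapped in 12 to 15 of the 15 steps for each gene, so most neighbours in these orders did not differ beyond their spread. For G6pc, the 3 steps without overlap separated SHAM4h and IRI72h from all groups below them, and IRI4h, NORM15m and IRI24h from each other at the low end. For Hk2, the 1 step without overlap lay between IRI72h and IRI6mN.

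**Figure D1:**
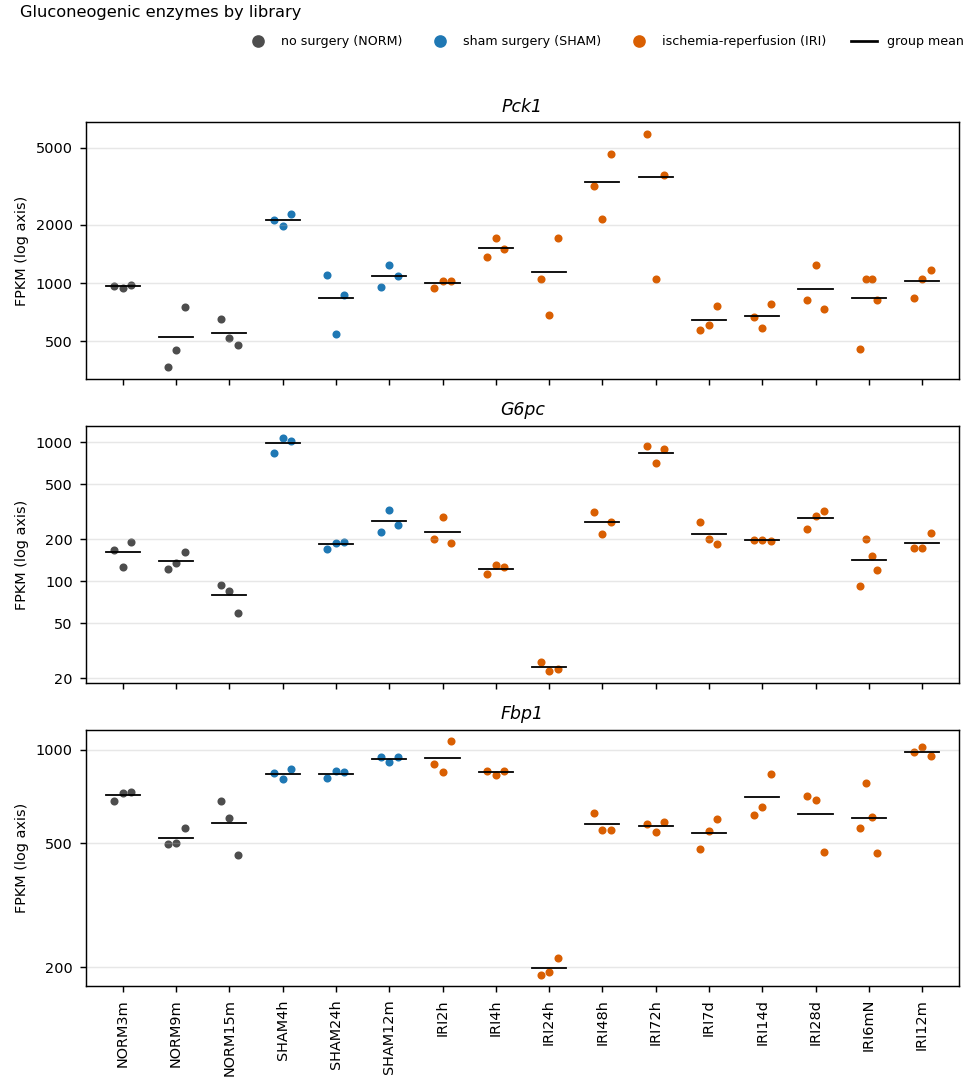
FPKM of Pck1, G6pc and Fbp1 (log axes) in each of the 49 libraries by group, where points are libraries, bars are group means, and colours mark no surgery, sham surgery and IRI. G6pc and Fbp1 are lowest in IRI24h, at 24.0 and 199 FPKM on average, whereas Pck1 is not lowered there and reaches its highest means in IRI48h and IRI72h.

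**Figure D2:**
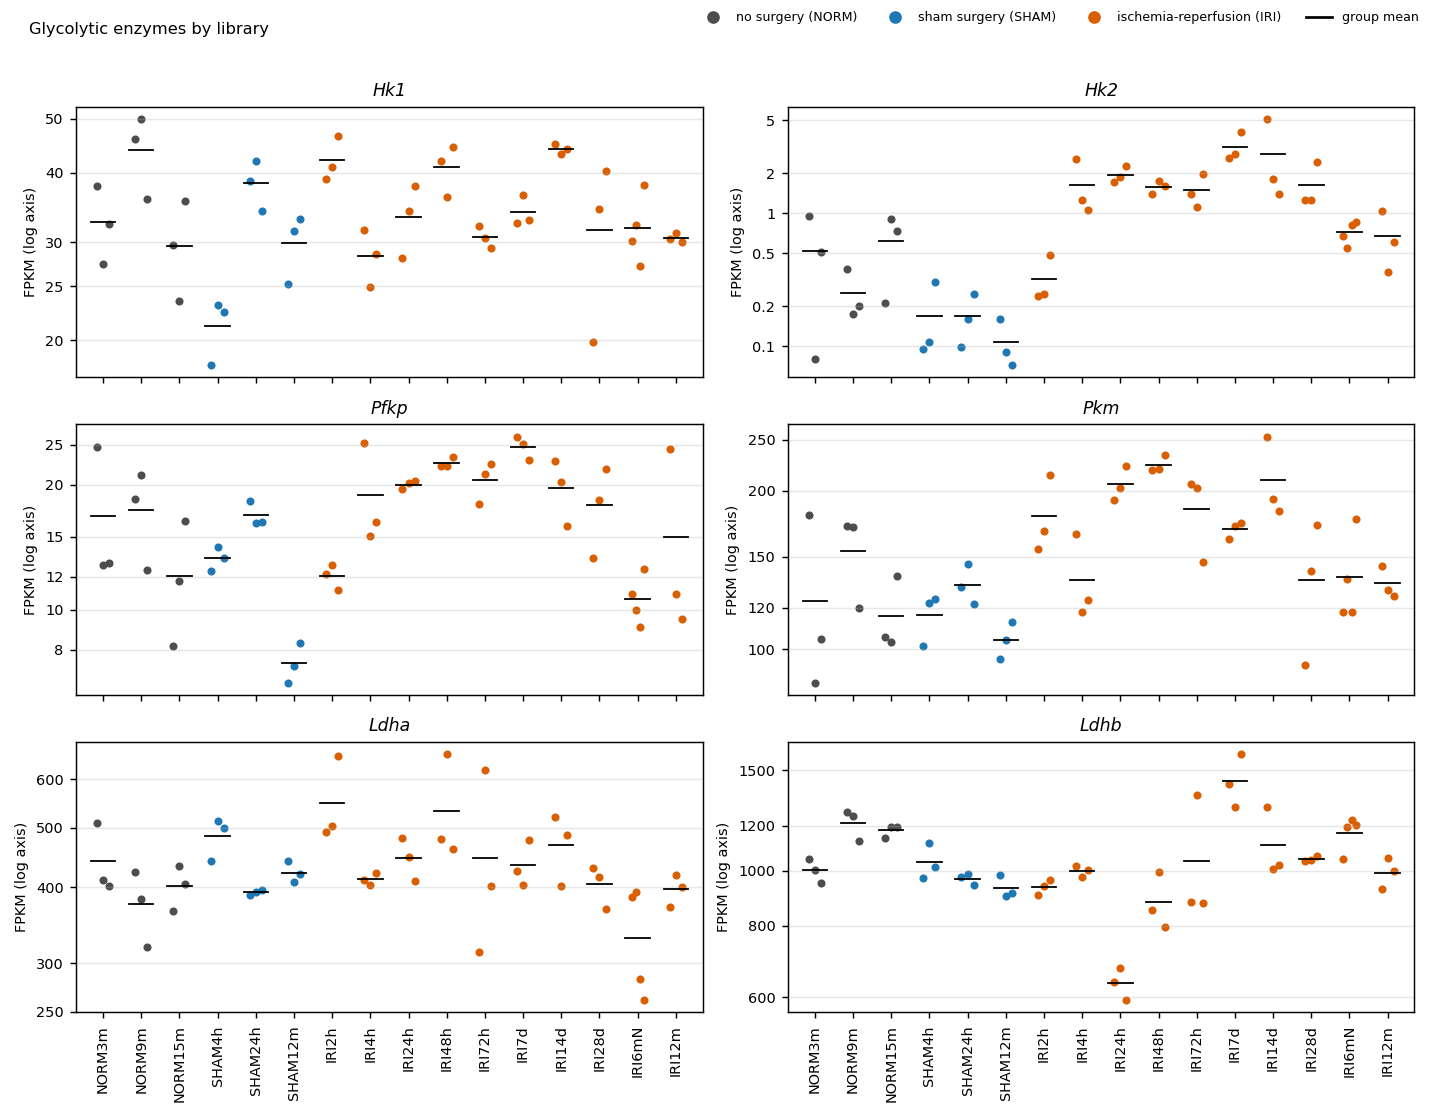
FPKM of Hk1, Hk2, Pfkp, Pkm, Ldha and Ldhb (log axes) in each of the 49 libraries by group, where points are libraries, bars are group means, and colours mark the kind of surgery. Hk2 is at most 0.303 FPKM in all 9 sham libraries and at or above 1.06 FPKM in every library from IRI4h to IRI28d, and Ldhb is lowest in IRI24h.

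Each IRI group was compared with the sham group nearest in time, by limma on log2(FPKM + 0.1), and a member was called at an adjusted p under 0.05. In IRI2h against SHAM4h, 4 of 9 members were called, where 40.0% of all genes tested were. These were 2 higher and 2 lower, against 22.1% and 17.9% of all genes. In IRI4h, 2 members were called (28.3% of all genes), 1 higher (17.7%) and 1 lower (10.5%). Against SHAM24h, 5 members were called in IRI24h (47.9%), 2 higher (32.5%) and 3 lower (15.4%). In IRI48h it was 6 (51.5%), 5 higher (28.5%) and 1 lower (23.1%), and in IRI72h it was 4 (48.4%), 3 higher (25.4%) and 1 lower (23.1%). In IRI7d it was 3 (48.3%), 2 higher (33.8%) and 1 lower (14.5%), in IRI14d 2 (49.8%), both higher (30.9%) and none lower (18.9%), and in IRI28d 3 (32.2%), 2 higher (22.3%) and 1 lower (9.86%). Against SHAM12m, 5 members were called in IRI6mN (51.3%), 2 higher (30.4%) and 3 lower (20.9%), and 2 in IRI12m (8.81%), both higher (8.44%) and none lower (0.369%). Read against these shares, the number of members called was not a result about the members. Which enzymes moved, and by how much, is given below. Without the libraries that stood apart, the count was 4 in IRI72h without replicate 2 and 2 in IRI14d without replicate 2. The share of all genes is not given for these fits, so these counts are not read as results about the members either. The comparisons from IRI24h to IRI28d share the 3 SHAM24h libraries, those of IRI2h and IRI4h share SHAM4h, and those of IRI6mN and IRI12m share SHAM12m.

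**Figure D3:**
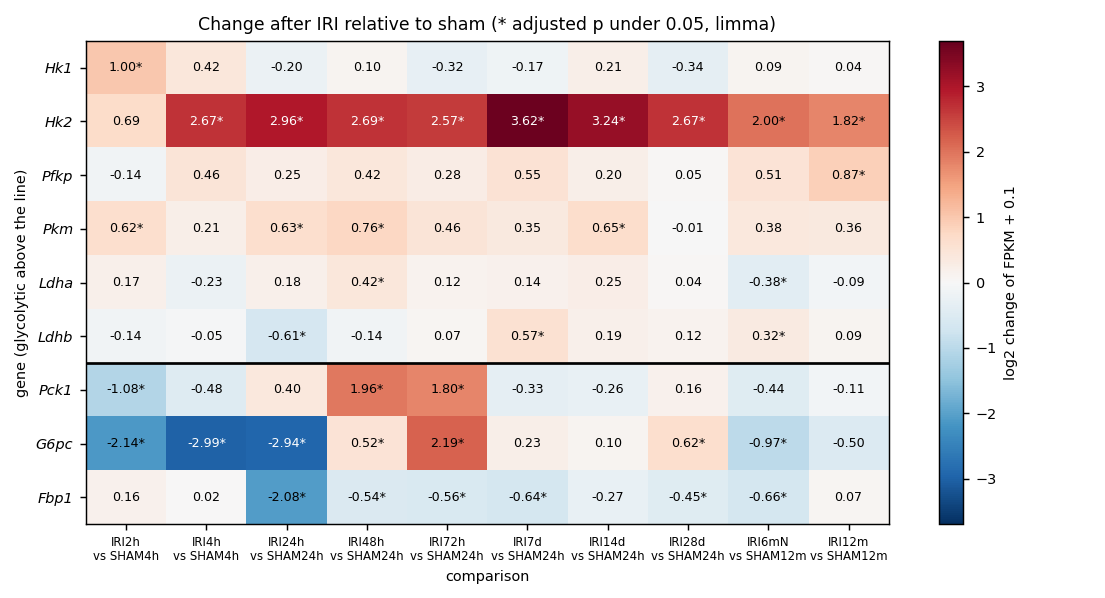
Change of each member (rows) in each IRI group relative to its sham group (columns), as the log2 change of FPKM + 0.1 from limma, with an asterisk at an adjusted p under 0.05. Hk2 is higher with an asterisk in 9 of 10 columns, and G6pc runs from −2.99 in IRI4h to 2.19 in IRI72h.

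The SHAM4h kidneys stood apart from the other controls in the gluconeogenic genes, which bears on every comparison at 2 and 4 hours. Pck1 was 2112, 1971 and 2267 FPKM in the 3 SHAM4h libraries and 1106, 549 and 869 FPKM in SHAM24h. G6pc was 843, 1079 and 1027 FPKM in SHAM4h and 172, 188 and 193 FPKM in SHAM24h. For both genes every SHAM4h library lay above every SHAM24h library. Of the 9 members, 3 were called between these sham groups, where 33.0% of all genes were. Pck1 was lower in SHAM24h by a log2 change of −1.39 (SE 0.38, adjusted p = 0.0042) and G6pc by −2.41 (SE 0.21, adjusted p = 5.9e-11), whereas Hk1 was higher by 0.85 (SE 0.17, adjusted p = 2.0e-04). Against NORM3m, SHAM4h was likewise higher in Pck1 (1.14, SE 0.38, adjusted p = 0.027) and in G6pc (2.61, SE 0.21, adjusted p = 2.7e-11) and lower in Hk1 (−0.61, SE 0.17, adjusted p = 0.0094), 3 members where 22.2% of all genes were called. The Pck1 call was lost without any 1 of the 6 libraries, at 1.08 to 1.19, and the Hk1 call without NORM3m replicate 1 (−0.50) or SHAM4h replicate 1 (−0.50). Between SHAM24h and NORM3m none of the 9 members was called by limma, with 20.9% of all genes called, and none of the 9 had an unadjusted p under 0.05. Without NORM3m replicate 2, Hk2 was lower in SHAM24h than in NORM3m (−1.62), and in a fit of the 2 groups alone Fbp1 was called (0.23, adjusted p = 0.032). Fbp1 was 804 to 864 FPKM in SHAM4h and 813 to 852 FPKM in SHAM24h, and the log2 difference of 0.01 (SE 0.14) was not called.

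G6pc, whose enzyme releases free glucose as the last step of gluconeogenesis, fell at 24 hours, was back above sham at 48 hours and peaked at 72 hours. In IRI24h it was 26.1, 22.6 and 23.3 FPKM. This was 7.68-fold below the SHAM24h mean, and the highest IRI24h library lay far under the lowest sham library, with a log2 change of −2.94 (SE 0.21, adjusted p = 1.9e-13). In IRI48h it was 315, 218 and 268 FPKM, and in IRI72h 935, 705 and 892 FPKM. All 3 IRI72h libraries lay above every SHAM24h library, by 4.58-fold on average (log2 change 2.19, SE 0.21, adjusted p = 1.9e-10). Their range overlapped that of SHAM4h, at 843 to 1079 FPKM, and no sham group was examined at 72 hours. The rise from IRI24h to IRI48h, 3.46 (SE 0.21, adjusted p = 1.6e-14), was the G6pc change with the smallest p between neighbouring times, and a further rise of 1.67 (SE 0.21, adjusted p = 6.8e-06) followed from IRI48h to IRI72h. In that last step G6pc was the single member called, where 2.89% of all genes were. Without IRI72h replicate 2 Ldha was called too (−0.57), and in a fit of the 2 groups alone G6pc was not called (adjusted p = 0.21). The smaller excess over sham in IRI48h, 0.52 (SE 0.21, adjusted p = 0.035), was lost without any SHAM24h library (0.47 to 0.55) and without IRI48h replicate 1 (0.39) or replicate 3 (0.51). It was also lost with quantile normalization (0.46, adjusted p = 0.11) and without the filter on low values (adjusted p = 0.059), and it turned to −0.46 when all 9 sham kidneys, SHAM4h included, served as control.

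By day 7 G6pc had come down again. It was 269, 202 and 186 FPKM in IRI7d, a fall by 1.96 on the log2 scale from IRI72h (SE 0.21, adjusted p = 1.2e-07), and 197, 199 and 193 FPKM in IRI14d. Neither group was called against SHAM24h, with log2 changes of 0.23 (SE 0.21) and 0.10 (SE 0.21). In IRI28d it was 239.5, 297 and 322 FPKM, every library above SHAM24h, with a log2 change of 0.62 (SE 0.21, adjusted p = 0.019). That call was lost without SHAM24h replicate 1 (0.58), IRI28d replicate 2 (0.59) or IRI28d replicate 3 (0.53). With all 9 sham kidneys as control the values in IRI7d, IRI14d and IRI28d were below 0, at −0.75, −0.89 and −0.36.

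At 2 and 4 hours the reading for G6pc depended on the control. It was 202, 289 and 188 FPKM in IRI2h and 112, 130.1 and 128 FPKM in IRI4h. All 6 libraries lay under SHAM4h, with log2 changes of −2.14 (SE 0.21, adjusted p = 8.7e-10) and −2.99 (SE 0.21, adjusted p = 1.1e-13), and both calls held without any 1 library. Against SHAM24h the IRI2h value was 0.27 (adjusted p = 0.35) and the IRI4h value −0.58 (adjusted p = 0.029), with 30.0% and 32.7% of all genes called. Against NORM3m they were 0.47 (adjusted p = 0.065) and −0.38 (adjusted p = 0.15), with 41.4% and 36.8% of all genes called. The fall from IRI2h to IRI4h, which uses no sham value, was −0.85 (SE 0.21, adjusted p = 0.0027), or adjusted p = 0.063 in a fit of these groups alone. In that step 3 of 9 members were called, and 24.3% of all genes.

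Fbp1, whose enzyme removes a phosphate from fructose-1,6-bisphosphate and so opposes phosphofructokinase, fell at 24 hours and came back in part. It was 855, 826 and 856 FPKM in IRI4h and 189, 193 and 214 FPKM in IRI24h. The 2 groups did not overlap, and the step from IRI4h to IRI24h was −2.09 on the log2 scale (SE 0.14, adjusted p = 6.6e-14). In that step 4 members were called, and 56.6% of all genes. Against SHAM24h, at 813, 852 and 849 FPKM, Fbp1 was 4.22-fold lower in IRI24h (log2 change −2.08, SE 0.14, adjusted p = 8.1e-14), and the value stayed between −2.13 and −2.04 when each library was left out. In IRI48h it was 626, 551 and 551 FPKM, in IRI72h 578, 544 and 588 FPKM, and in IRI7d 479, 547 and 597 FPKM. All 9 of these libraries lay below all SHAM24h libraries, and the log2 changes were −0.54 (SE 0.14, adjusted p = 0.0015), −0.56 (SE 0.14, adjusted p = 0.0013) and −0.64 (SE 0.14, adjusted p = 2.9e-04). In IRI14d it was 618, 653 and 837 FPKM and was not called (−0.27, SE 0.14, adjusted p = 0.11), although it was called without IRI14d replicate 3 (−0.40). In IRI28d it was 711, 688 and 470.0 FPKM and was called lower (−0.45, SE 0.14, adjusted p = 0.012), a call that was lost without IRI28d replicate 3 (−0.26) and in a fit of the 2 groups alone (adjusted p = 0.076).

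Pck1, whose enzyme makes phosphoenolpyruvate from oxaloacetate and commits carbon to gluconeogenesis, took another course. In IRI24h it was 1055, 681 and 1701 FPKM, overlapping the SHAM24h range, with a log2 change of 0.40 (SE 0.38, adjusted p = 0.4). The summed fat markers of these 3 libraries were 78.8, 17.5 and 249.5 FPKM, in the order of their Pck1, against 8.46 to 23.9 FPKM in SHAM24h, with 1 of 7 markers called higher. The fat sums were 25.1, 42.85 and 23.9 FPKM in IRI48h and 33.4, 24.4 and 18.1 FPKM in IRI72h. In neither of these groups did they follow the order of Pck1. Pck1 is also expressed in fat, and the part of fat in its level was not tested. In IRI48h it was 3171, 2133 and 4631 FPKM, every library above every SHAM24h library, 3.94-fold on average (log2 change 1.96, SE 0.38, adjusted p = 4.2e-05). Pck1 there overlapped SHAM4h, at 1971 to 2267 FPKM. In IRI72h it was 5874, 1044 and 3612 FPKM. There replicate 2, the library nearest to IRI7d, lay within the sham range while the other 2 lay above it. The log2 change of IRI72h was 1.80 (SE 0.38, adjusted p = 1.5e-04), or 2.51 without replicate 2, and it was 1.27 at the lowest when another library was left out. In a fit of the 2 groups alone its adjusted p was 0.071. The rise from IRI24h to IRI48h was 1.56 (SE 0.38, adjusted p = 0.0023), and with quantile normalization it was 0.84 (adjusted p = 0.061). From IRI24h to IRI48h 4 members were called, and 25.0% of all genes. The fall from IRI72h to IRI7d was −2.13 (SE 0.38, adjusted p = 1.2e-04), or adjusted p = 0.092 in a fit of the 2 groups alone, where 3 members and 25.7% of all genes were called. In IRI7d, IRI14d and IRI28d Pck1 lay between 572 and 1235 FPKM and was not called against SHAM24h, whereas with all 9 sham kidneys as control it was called lower in IRI7d (−0.94) and IRI14d (−0.87). Against SHAM4h it was lower in IRI2h (−1.08, SE 0.38, adjusted p = 0.021), at 946, 1020.3 and 1028 FPKM, but this was lost without SHAM4h replicate 3 (−1.03) or IRI2h replicate 3 (−1.11), and the value was 0.30 against SHAM24h and 0.05 against NORM3m.

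These 3 enzymes belong to the proximal tubule, so their levels are set beside the summed level of 14 proximal tubule markers. The sum was 7905 to 8258 FPKM in SHAM24h, 2288 to 2650 FPKM in IRI24h, 2981 to 3954 FPKM in IRI48h and 3424 to 5524 FPKM in IRI72h, with no marker at 0 in any group. As a percentage of the SHAM24h mean, the markers were at 30.8% in IRI24h, 41.4% in IRI48h, 51.8% in IRI72h and 69.8% in IRI7d. At the same times Fbp1 was at 23.7%, 68.7%, 68.0% and 64.6% of its own SHAM24h mean. G6pc was at 13.0%, 145%, 458% and 119%, and Pck1 at 136%, 394%, 417% and 76.9%. In IRI48h and IRI72h, the mean of each of the 3 enzymes thus stood higher relative to SHAM24h than the mean of the summed markers did. In IRI24h, Fbp1 and G6pc stood lower than the markers and Pck1 stood higher. Of the 14 markers, 11 were called lower and none higher in IRI24h (median log2 change −1.28), 10 lower in IRI48h (−1.60), 11 lower in IRI72h (−1.14), and 6 lower in each of IRI7d, IRI14d and IRI28d. From IRI24h to IRI48h the summed level thus rose while the median change of the markers moved further below 0. How far the level of these markers accounts for that of the enzymes was not tested.

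**Figure D4:**
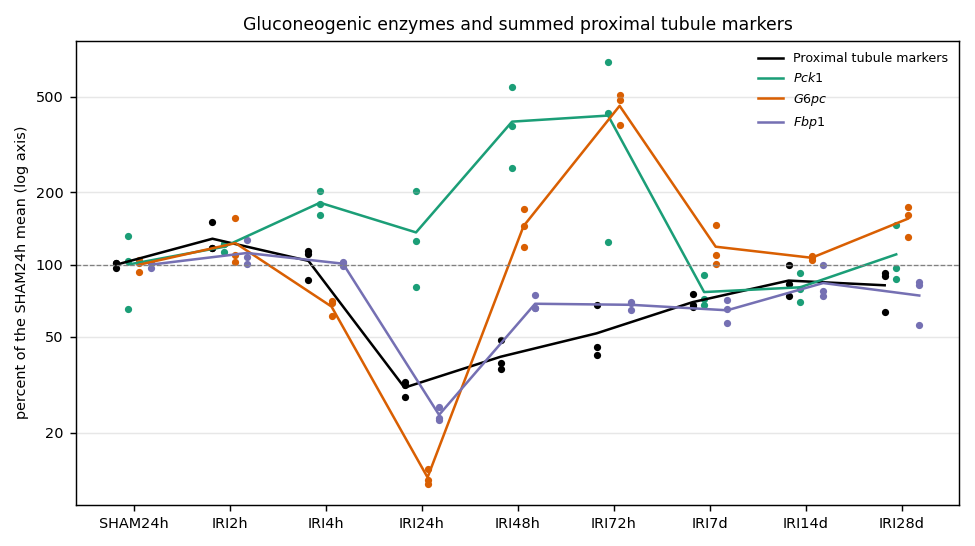
Percent of the SHAM24h mean (log axis) of the summed FPKM of 14 proximal tubule markers, and of the FPKM of Pck1, G6pc and Fbp1, in SHAM24h and in the IRI groups of the same depth set, where points are libraries and lines join group means. In IRI24h the markers are at 30.8%, Fbp1 at 23.7%, G6pc at 13.0% and Pck1 at 136%, and in IRI72h Pck1 and G6pc are at 417% and 458% while the markers are at 51.8%.

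Hk2, an inducible hexokinase that traps glucose in the cell as glucose-6-phosphate, was the glycolytic member with the largest changes. It was 0.0956, 0.108 and 0.303 FPKM in SHAM4h, 0.0980, 0.161 and 0.246 FPKM in SHAM24h, and 0.160, 0.0906 and 0.0723 FPKM in SHAM12m. These low values rest on 25 to 89 reads per library. In IRI2h it was 0.240, 0.245 and 0.484 FPKM, overlapping SHAM4h, and was not called (0.69, SE 0.48, adjusted p = 0.26). In IRI4h it was 2.55, 1.26 and 1.06 FPKM, 9.61-fold above SHAM4h without overlap (log2 change 2.67, SE 0.48, adjusted p = 5.1e-05). It was also called against SHAM24h (2.62, adjusted p = 4.7e-05) and against NORM3m (1.72, adjusted p = 0.0044), and the step from IRI2h to IRI4h was 1.98 (SE 0.48, adjusted p = 0.0025), or adjusted p = 0.058 in a fit of these groups alone.

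From 24 hours on, Hk2 remained above sham at every time examined. It was 1.71, 1.87 and 2.28 FPKM in IRI24h, 11.6-fold above SHAM24h on average (log2 change 2.97, SE 0.48, adjusted p = 3.2e-06). In IRI48h it was 1.39 to 1.76 FPKM and in IRI72h 1.11 to 1.99 FPKM, with log2 changes of 2.69 (adjusted p = 1.4e-05) and 2.57 (adjusted p = 3.0e-05). The highest group mean came in IRI7d, with 2.62, 2.81 and 4.10 FPKM from 776 to 1277 reads, 18.9-fold above SHAM24h (log2 change 3.62, SE 0.48, adjusted p = 1.0e-07). None of the steps between neighbouring times after IRI4h was called for Hk2, except that from IRI72h to IRI7d with a pseudocount of 1 FPKM (0.74, adjusted p = 0.018), which was 1.05 (adjusted p = 0.1) with a pseudocount of 0.1 and did not overlap. In IRI14d it was 5.12, 1.82 and 1.39 FPKM, where replicate 1 lay far above the other libraries, and in IRI28d 1.25, 1.25 and 2.43 FPKM. The log2 changes were 3.24 (adjusted p = 8.8e-07) and 2.67 (adjusted p = 3.2e-05). For each of the comparisons from IRI4h to IRI28d the call held in all 6 fits that left out 1 library, with log2 changes of 2.31 to 3.82. The folds from IRI24h to IRI28d are relative to SHAM24h, with a mean of 0.168 FPKM. NORM3m, of another depth set, had a mean of 0.517 FPKM, at 0.0799 to 0.960 FPKM. The size of the rise therefore depends on the control, and the groups from IRI24h to IRI28d were not tested against NORM3m.

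Markers of other cells and states moved over the same times as Hk2. The summed level of 10 markers of injured tubule cells, among them Havcr1, Lcn2 and Sox9, was 532 to 659 FPKM in SHAM24h, 17603 to 19951 FPKM in IRI24h, 8816 to 12440 FPKM in IRI7d and 2701 to 5525 FPKM in IRI28d. All 10 were called higher from IRI24h to IRI7d, with median log2 changes of 3.54 to 4.44. The summed level of the macrophage markers was 43.1 to 50.6 FPKM in SHAM24h, 101 to 121 FPKM in IRI24h, 941 to 1206 FPKM in IRI7d and 756 to 1576 FPKM in IRI14d. Of 8 macrophage markers tested, 5 were higher in IRI24h and 8 in IRI7d, IRI14d and IRI28d. All 7 markers of dividing cells were higher from IRI24h to IRI7d, with sums of 2.00 to 3.26 FPKM in SHAM24h and 98.1 to 163 FPKM in IRI48h. All 6 neutrophil markers tested were higher from IRI24h to IRI72h. The summed level of 7 fibroblast and myofibroblast markers was 75.4 to 91.6 FPKM in SHAM24h, 336 to 461 FPKM in IRI24h, 659.7 to 927 FPKM in IRI7d and 639 to 951 FPKM in IRI14d, with 6 of 7 higher in IRI24h and 7 in IRI7d. At the level of libraries, IRI14d replicate 1, the highest of all libraries in Hk2, was also highest of the 49 in macrophage markers, and IRI4h replicate 1, highest of its group in Hk2, was highest of its group in injured tubule markers, at 2351 FPKM against 1245 and 1130 FPKM. That IRI4h library also had the most neutrophil markers of its group, 121 FPKM against 22.8 and 22.7 FPKM, and the most macrophage markers, 143.5 FPKM against 45.3 and 64.0 FPKM. Other libraries went the other way. In IRI72h, replicate 3 had the most Hk2 of its group, 1.99 FPKM, and the lowest sum of injured tubule markers, 6227 FPKM. Replicate 2 of IRI72h had the least Hk2, 1.11 FPKM, with the highest injured tubule and macrophage sums, 17433 and 506.5 FPKM. IRI7d replicate 3, highest of its group in Hk2 at 4.10 FPKM, had the lowest macrophage sum there, 941 FPKM. The part of these cells in the Hk2 level was not tested.

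Hk1, the constitutive hexokinase, was far more abundant than Hk2 and moved little after IRI. It was 18.0, 23.1 and 22.4 FPKM in SHAM4h and 39.1, 41.0 and 46.6 FPKM in IRI2h, without overlap, with a log2 change of 1.00 (SE 0.17, adjusted p = 2.6e-05). Against SHAM24h, at 38.7, 42.0 and 34.2 FPKM, the IRI2h value was 0.14 (adjusted p = 0.58), and against NORM3m it was 0.38 (adjusted p = 0.075). From IRI2h to IRI4h it fell by 0.58 (SE 0.17, adjusted p = 0.014), a call that was lost without IRI2h replicate 3 (−0.50) or IRI4h replicate 2 (−0.49). From 24 hours on Hk1 was not called against the sham group nearest in time, although it was called lower in IRI28d without IRI28d replicate 3 (−0.54). With all 9 sham kidneys as control, which include the low values of SHAM4h, it was called higher in IRI48h (0.50, adjusted p = 0.0029) and in IRI14d (0.61, adjusted p = 3.2e-04), against 0.10 and 0.21 with SHAM24h. From IRI14d to IRI28d it was called lower (−0.55, SE 0.17, adjusted p = 0.025), which was lost without IRI28d replicate 1 (−0.25), without IRI14d replicate 1 (−0.53) or without IRI14d replicate 3 (−0.55). In that step 2 members, and 18.1% of all genes, were called.

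The ratio of Hk2 to Hk1 within a library does not depend on the scaling of that library. It was 0.0045 ± 0.0024 (SD, n = 3) in SHAM24h, 0.0587 ± 0.0032 in IRI24h and 0.0941 ± 0.0264 in IRI7d, so Hk1 transcripts remained the more abundant ones at every time. For the overlap and the test, 0.1 FPKM was added to each gene first, which is near the Hk2 values of sham kidneys. In this form the ratio is not free of the scaling. It did not overlap between IRI and sham in 9 of 10 comparisons, the exception being IRI2h. With 3 libraries against 3 an exact two-sided permutation test cannot go below p = 0.1, the value it gave in 8 of these 9, and with 4 against 3 it gave p = 0.0571, the smallest possible. Adjusted over the 20 ratio tests, the smallest p was 0.125.

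Pkm, which catalyses the last step of glycolysis and whose splice forms are not separated in these data, rose by less than Hk2. It was 131, 145 and 122 FPKM in SHAM24h, 192, 203 and 223 FPKM in IRI24h and 219, 219.6 and 234 FPKM in IRI48h. Neither IRI group overlapped sham, and the log2 changes were 0.63 (SE 0.20, adjusted p = 0.01) and 0.76 (SE 0.20, adjusted p = 0.0022). Both calls held without any 1 library. In IRI72h it was 206, 202 and 146 FPKM and was not called (0.46, SE 0.20, adjusted p = 0.059), but it was called without IRI72h replicate 3 (0.62), with libraries of the same depth set alone (adjusted p = 0.04) and with all 9 sham kidneys as control (0.65). In IRI7d it was not called (0.35, adjusted p = 0.16), but it was in a fit of the 2 groups alone (adjusted p = 0.0045) and with all 9 sham kidneys (0.53). In IRI14d it was 253, 193 and 183 FPKM and was called higher (0.65, SE 0.20, adjusted p = 0.0084), which was lost without IRI14d replicate 1 (0.51). The rise in IRI2h, 155, 168 and 215 FPKM against 101, 122 and 125 FPKM in SHAM4h (0.62, SE 0.20, adjusted p = 0.016), was lost without SHAM4h replicate 1 (0.52) or IRI2h replicate 3 (0.48), and against SHAM24h the value was 0.42 (adjusted p = 0.12) and against NORM3m 0.59 (adjusted p = 0.02). From IRI4h to IRI24h Pkm was higher by 0.61 (SE 0.20, adjusted p = 0.011), or 0.52 and not called without IRI4h replicate 2. From IRI14d to IRI28d it was lower by a log2 change of −0.66 (SE 0.20, adjusted p = 0.022), which was lost without IRI28d replicate 1 (−0.42) or IRI14d replicate 1 (−0.52).

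Pfkp, a phosphofructokinase isoform of the committed step of glycolysis, was not called against the sham group nearest in time in any IRI group up to 28 days, a reading that depended on the control and on the fit. It was 18.2, 16.2 and 16.3 FPKM in SHAM24h, 19.5, 20.2 and 20.4 FPKM in IRI24h, 22.2, 22.2 and 23.4 FPKM in IRI48h and 26.1, 25.0 and 23.0 FPKM in IRI7d. Every library of these 3 IRI groups lay above every SHAM24h library, while the log2 changes, 0.25, 0.42 and 0.55 (SE 0.25 each), did not pass the test, with adjusted p of 0.45, 0.17 and 0.074. Fitted with libraries of the same depth set alone, IRI48h and IRI7d passed at the same values (adjusted p = 0.039 and 0.0089), as did IRI4h (0.46, adjusted p = 0.041), which in the fit of all libraries had an adjusted p of 0.18. In fits of the 2 groups alone IRI24h was called too (adjusted p = 0.0094). With all 9 sham kidneys as control, which include SHAM12m at 6.68 to 8.32 FPKM, Pfkp was called higher in each group from IRI4h to IRI28d, with values of 0.56 to 1.05 and adjusted p of 4.0e-05 to 0.031.

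Ldha and Ldhb encode the 2 subunits of lactate dehydrogenase, of which the A form favours making lactate and the B form predominates in oxidative tissue. Ldhb was 975, 985 and 943 FPKM in SHAM24h and 637, 674 and 593 FPKM in IRI24h, without overlap, with a log2 change of −0.61 (SE 0.11, adjusted p = 2.7e-05). In IRI48h it was 853, 995 and 796 FPKM, overlapping sham, and in IRI7d it was 1421, 1293 and 1601 FPKM, every library above sham (0.57, SE 0.11, adjusted p = 7.8e-05). Both calls held without any 1 library. Ldhb thus rose in 2 of the steps between, by 0.47 from IRI24h to IRI48h (SE 0.11, adjusted p = 0.0022) and by 0.50 from IRI72h to IRI7d (SE 0.11, adjusted p = 0.0015), the latter with an adjusted p of 0.19 in a fit of the 2 groups alone. From IRI7d to IRI14d it was lower (−0.38, SE 0.11, adjusted p = 0.012) as the single member called, with 23.8% of all genes, and the call was lost without IRI7d replicate 3 (−0.30), IRI14d replicate 2 (−0.32) or IRI14d replicate 3 (−0.33).

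Ldha was 388, 392 and 396 FPKM in SHAM24h and 479.8, 659 and 461 FPKM in IRI48h, where replicate 2 stood above the other libraries. It was called higher in that group (0.42, SE 0.17, adjusted p = 0.032), but the call was lost without IRI48h replicate 2 (0.26), without any SHAM24h library (0.42 to 0.43), with quantile normalization (0.21) and without the filter on low values (adjusted p = 0.052). Ldha was not called in the other comparisons with the sham group nearest in time up to 28 days, but it was called in IRI24h in a fit of the 2 groups alone (0.18, adjusted p = 0.041), in IRI2h with all 9 sham kidneys (0.34, adjusted p = 0.048) and in IRI2h against SHAM24h (0.47, adjusted p = 0.029). The mouse genome holds near-identical processed copies of Ldha, and how reads that match several places were counted is not given in the sources used here, so its level is less certain than that of the other members.

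The ratio of Ldha to Ldhb within a library was 0.405 ± 0.0127 (SD, n = 3) in SHAM24h, 0.704 ± 0.0463 in IRI24h, 0.602 ± 0.0537 in IRI48h and 0.303 ± 0.0077 in IRI7d. It was thus above sham at 24 and 48 hours and below sham at 7 days, without overlap at these 3 times. In IRI72h, at 0.424 ± 0.0588, it overlapped sham. It did not overlap sham in 7 of 10 comparisons, with p = 0.1 in 6 of them and p = 0.0571 in IRI6mN by the exact two-sided permutation test, the smallest values these designs allow.

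The difference between the mean log2(FPKM + 0.1) of the 6 glycolytic members and that of the 3 gluconeogenic members was computed in each library, as a description with no test. It was −3.47 ± 0.18 (SD, n = 3) in SHAM24h, and −1.39 ± 0.24 in IRI24h was the highest of the 16 group means. The distance between these groups was 2.07. The glycolytic mean was 5.45 to 5.54 in SHAM24h and 5.96 to 6.09 in IRI24h, and the gluconeogenic mean was 8.80 to 9.07 in SHAM24h and 7.17 to 7.67 in IRI24h. Both ranges were apart, and the gluconeogenic side moved further. The glycolytic difference rested on Hk2, since the mean of the other 5 glycolytic members was 6.92 to 7.03 in SHAM24h and 6.98 to 7.06 in IRI24h, which overlap. Without Hk2 the distance was 1.59. In IRI48h, at −3.41 ± 0.32, and in IRI72h, at −4.08 ± 0.64, the difference overlapped that of SHAM24h, since Pck1 and G6pc were then high while the glycolytic mean, at 6.15 to 6.28 and 5.92 to 6.16, was still above sham. Without Hk2 the glycolytic mean was above sham in IRI48h, at 7.26 to 7.35, and overlapped sham in IRI72h, at 6.99 to 7.34, and the distance of the difference from sham was −0.34 in IRI48h.

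At 7 and 14 days the difference was again above sham, −2.38 ± 0.04 in IRI7d and −2.53 ± 0.38 in IRI14d, without overlap with SHAM24h. In IRI28d it was −3.16 ± 0.38 and overlapped sham. Without Hk2 the distances from SHAM24h at these 3 times were 0.53, 0.45 and −0.14. SHAM4h had the lowest mean of all groups, −4.90 ± 0.10, against −3.52 ± 0.18 in IRI2h and −3.17 ± 0.32 in IRI4h, so the distances of 1.39 and 1.73 at these times carry the high Pck1 and G6pc levels of SHAM4h. Set against SHAM24h at −3.47, the IRI2h and IRI4h libraries overlapped sham. At the late times the reading also depended on the control. The difference was −3.03 ± 0.445 (SD, n = 4) in IRI6mN and −3.51 ± 0.32 in IRI12m. Both lay above SHAM12m, at −4.20 ± 0.16, without overlap, by 1.18 and 0.69. Against unoperated kidneys the distance was −0.33 for IRI6mN with NORM9m and −0.91 for IRI12m with NORM15m, and the ranges overlapped in both.

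**Figure D5:**
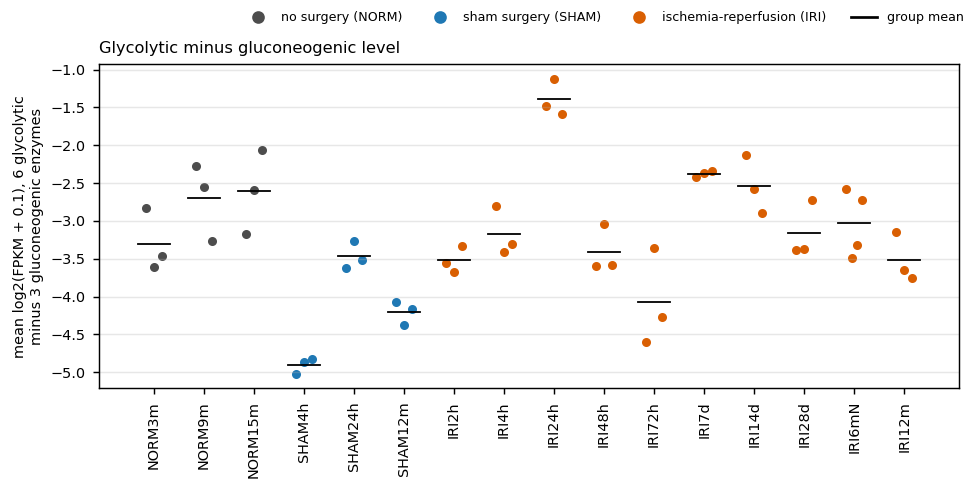
Mean log2(FPKM + 0.1) of the 6 glycolytic members minus that of the 3 gluconeogenic members, by group, where points are the 49 libraries, bars are group means, and colours mark the kind of surgery. IRI24h has the highest mean, −1.39, and SHAM4h the lowest, −4.90, and IRI48h and IRI72h overlap SHAM24h.

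At 6 and 12 months Hk2 was still higher than in SHAM12m. It was 0.681, 0.546, 0.820 and 0.863 FPKM in IRI6mN and 1.05, 0.360 and 0.606 FPKM in IRI12m, and no library of either group overlapped the sham range. The log2 changes were 2.00 (SE 0.45, adjusted p = 3.6e-04), 6.75-fold between the means, and 1.82 (SE 0.48, adjusted p = 0.011), 6.24-fold. The IRI6mN call held without any 1 of the 7 libraries. The IRI12m call was lost without SHAM12m replicate 3 (1.69) or IRI12m replicate 1 (1.48), and with a pseudocount of 1 FPKM (0.57, adjusted p = 0.16). Against unoperated kidneys Hk2 was called in neither group, at 1.26 in IRI6mN against NORM9m (SE 0.45, adjusted p = 0.076) and 0.17 in IRI12m against NORM15m (SE 0.48, adjusted p = 0.82).

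In unoperated kidneys Hk2 ranged more widely than in sham kidneys. Hk2 was 0.960, 0.0799 and 0.511 FPKM in NORM3m, 0.384, 0.174 and 0.202 FPKM in NORM9m and 0.212, 0.908 and 0.732 FPKM in NORM15m, from 9 to 127 reads per library. In NORM15m, the 2 libraries with high Hk2 had summed injured tubule markers of 2562 and 2026 FPKM, against 735 FPKM in the library with low Hk2. In NORM3m, the library with most Hk2 had the most of these markers, 1385 FPKM against 564 and 579 FPKM, and the summed fat markers of its 3 libraries were 210, 21.0 and 119 FPKM, in the order of their Hk2. SHAM12m was lower than NORM15m in Hk2 (−1.65, SE 0.48, adjusted p = 0.0072), Pfkp (−0.64, adjusted p = 0.046) and Ldhb (−0.34, adjusted p = 0.019), and higher in Pck1 (0.99, adjusted p = 0.038), G6pc (1.77, SE 0.21, adjusted p = 9.1e-08) and Fbp1 (0.71, SE 0.14, adjusted p = 2.1e-04), 6 of 9 members where 35.6% of all genes were called. Of these, the calls of G6pc and Fbp1 held without any 1 library. The Hk2 call was lost without NORM15m replicate 2 (−1.32) and with a pseudocount of 1 FPKM (−0.52, adjusted p = 0.085), and the Ldhb call with quantile normalization (−0.11, adjusted p = 0.34). In 4 of the 6 fits without 1 library Ldhb was not called (−0.33 to −0.31), and in 5 of the 6 neither Pck1 (0.90 to 1.08) nor Pfkp (−0.72 to −0.40) was called. The fat markers were lower in SHAM12m for 6 of 7 genes tested, with sums of 11.3 to 12.3 FPKM against 39.5 to 86.5 FPKM in NORM15m. The part of these markers in the difference was not tested, and it lies across depth sets.

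G6pc and Fbp1 were lower in IRI6mN than in SHAM12m. G6pc was 92.4, 200.4, 151 and 121 FPKM in IRI6mN and 225, 328 and 256 FPKM in SHAM12m, without overlap (−0.97, SE 0.20, adjusted p = 9.7e-05). Fbp1 was 562, 781, 606 and 465 FPKM against 946, 916 and 947 FPKM, also without overlap (−0.66, SE 0.13, adjusted p = 1.0e-04). Both calls held without any 1 library, but neither gene was called against NORM9m, the unoperated group of the same depth set and matching age, with values of −0.03 (adjusted p = 0.95) and 0.19 (adjusted p = 0.44). In that comparison none of the 9 members was called by limma, against 8.32% of all genes, although 3 had an unadjusted p under 0.05, namely Hk1, Hk2 and Pfkp, of which Pfkp was called with quantile normalization (−0.70, adjusted p = 0.037). In the same IRI6mN comparison with SHAM12m, Ldhb was higher (0.32, SE 0.11, adjusted p = 0.011), or 0.07 and not called with quantile normalization. Ldha was lower (−0.38, SE 0.16, adjusted p = 0.043), which was lost without any SHAM12m library (−0.34 to −0.40), without IRI6mN replicate 3 (−0.31) or replicate 4 (−0.27), and in 3 other alternative fits. All 7 fat markers tested and all 8 markers of T and B cells were higher in IRI6mN than in SHAM12m, and 5 of 14 proximal tubule markers were lower, with sums of 5767 to 8195 FPKM against 9208 to 9973 FPKM.

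In IRI12m none of the 3 gluconeogenic members was called against SHAM12m. G6pc was 175, 173 and 223 FPKM, every library below SHAM12m, with a log2 change of −0.50 (SE 0.21, adjusted p = 0.16), or −0.94 and called with all 9 sham kidneys as control. Fbp1 was 983, 1016 and 951 FPKM (0.07, SE 0.14, adjusted p = 0.89). Pfkp was called higher (0.87, SE 0.25, adjusted p = 0.023) at 24.5, 10.9 and 9.48 FPKM against 6.68 to 8.32 FPKM, with IRI12m replicate 1 far above the other libraries. The call was lost without that library (0.45), without SHAM12m replicate 1 (0.80) or replicate 2 (0.86), and in the fit of the same depth set alone (adjusted p = 0.15). The same library had summed injured tubule markers of 3342 FPKM, against 777 and 802 FPKM in the other 2, and its part in the Pfkp level was not tested. Against NORM15m, IRI12m was higher in G6pc (1.27, SE 0.21, adjusted p = 2.2e-05) and in Fbp1 (0.78, SE 0.14, adjusted p = 7.7e-05), 2 members where 31.4% of all genes were called, and both held without any 1 library. With age, G6pc fell in unoperated kidneys from 169, 126 and 192 FPKM in NORM3m to 94.5, 85.4 and 59.4 FPKM in NORM15m (−1.03, SE 0.21, adjusted p = 0.0024). It was the 1 member called there, where 8.91% of all genes were, and in a fit of its depth set alone its adjusted p was 0.056. Fbp1 was lower in NORM9m than in NORM3m (−0.46, SE 0.14, adjusted p = 0.029), the 1 member called where 13.5% of all genes were, and this was lost without NORM3m replicate 2 or 3 (−0.44 each) or NORM9m replicate 1 or 2 (−0.43 each).

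The other genes of both pathways did not move as 2 blocks. Their counts stand against the shares of all genes, 32.5% higher and 15.4% lower in IRI24h, 28.5% higher and 23.1% lower in IRI48h, 25.4% and 23.1% in IRI72h, and 33.8% and 14.5% in IRI7d. Of 20 other glycolytic genes tested, 4 were called higher and 5 lower in IRI24h, with a median log2 change of 0.01, and again 4 higher and 5 lower in IRI48h (0.03), beside all-gene medians of 0.18 and 0.02. In IRI48h, Hk3, a hexokinase of myeloid cells, was higher by 2.04 (SE 0.48) at 0.830 ± 0.217 FPKM (SD, n = 3) against 0.125 ± 0.0452 FPKM in SHAM24h. Pfkfb1, which makes or removes the phosphofructokinase activator fructose-2,6-bisphosphate, was higher by 1.55 (SE 0.29). Lower were the muscle-type phosphofructokinase Pfkm (−1.10, SE 0.14), at 13.2 ± 2.95 FPKM against 28.0 ± 1.01 FPKM, and the aldolase Aldoc (−0.98, SE 0.30).

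Of 10 other gluconeogenic genes tested, 2 were higher and 4 lower in IRI24h, 3 higher and 2 lower in IRI48h, and 2 higher and 6 lower in IRI7d. Pcx, the pyruvate carboxylase that supplies the oxaloacetate used by Pck1, was 102 ± 17.3 FPKM in IRI48h against 281 ± 10.1 FPKM in SHAM24h (−1.47, SE 0.18, adjusted p = 2.6e-08). Pck2, the mitochondrial carboxykinase, was higher (0.87, SE 0.14), at 10.4 ± 0.608 FPKM against 5.63 ± 0.344 FPKM, as were Fbp2 (0.87, SE 0.20), the bisphosphatase of muscle, and the aspartate aminotransferase Got1 (0.43, SE 0.16). In IRI12m against SHAM12m none of the 10 was called by limma.

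Of 12 genes of glucose, fructose and lactate transport, 3 were higher and 7 lower in IRI48h. Slc16a1, a carrier of lactate and pyruvate, was 32.5 ± 4.57 FPKM against 5.79 ± 0.161 FPKM in SHAM24h (2.46, SE 0.23, adjusted p = 1.1e-10), and it was 23.6 FPKM on average in SHAM4h. The sodium-coupled lactate transporter Slc5a8 (−2.16, SE 0.31), the carrier Slc16a7 (−2.11, SE 0.28) and the fructose transporter Slc2a5 (−1.93, SE 0.32) were lower. Of 13 genes that govern the entry of pyruvate into the mitochondrion, 2 were higher and 10 lower in IRI24h (median −0.57) and none higher and 10 lower in IRI7d (median −0.59). Pdk4, a kinase that switches off pyruvate dehydrogenase, rose by 2.44 in IRI48h (SE 0.50, adjusted p = 9.3e-05), to 45.7 ± 24.4 FPKM from 7.58 ± 2.79 FPKM, and its mean in SHAM4h was 161 FPKM. The phosphatase Pdp1, which has the opposite action, was higher too (1.17, SE 0.28), whereas Pdk3 (−0.96, SE 0.14) and Pdp2 (−0.89, SE 0.22) were lower.

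The pentose phosphate pathway, which branches from glucose-6-phosphate, was called in 1 direction from 24 to 72 hours. Of its 8 genes, 6 were higher and none lower in IRI24h (median 1.16), and 5 were higher and none lower in IRI48h (median 0.67) and in IRI72h (median 0.54). Earlier, none was higher against SHAM4h, beside 22.1% of all genes in IRI2h and 17.7% in IRI4h. In IRI2h 2 were lower (17.9% of all genes) and in IRI4h 4 were lower (10.5%). Between SHAM4h and SHAM24h 33.0% of all genes were called, and the part of this control in the early counts was not tested. In IRI48h, Taldo1 was 562 ± 7.42 FPKM against 216 ± 7.99 FPKM (1.38, SE 0.11, adjusted p = 8.9e-13) and Pgd was 56.6 ± 2.18 FPKM against 21.8 ± 0.0944 FPKM (1.37, SE 0.16), with G6pdx (0.98, SE 0.12) and Tkt (0.94, SE 0.13) also higher. Of 7 genes of fructose and glycerol use, 4 were lower in IRI24h, 2 in IRI48h and 6 in each of IRI72h and IRI7d, and none was higher. The 2 called in IRI48h were the ketohexokinase Khk and the sorbitol dehydrogenase Sord (−1.04 each, SE 0.21 and 0.13). Of 12 regulators of both pathways, 2 were higher and 4 lower in IRI48h, shares near those of all genes. Myc was higher (2.06, SE 0.39), and Ppargc1a (−1.10, SE 0.27), Hnf4a (−0.77, SE 0.12) and the glucocorticoid receptor Nr3c1 (−0.59, SE 0.25), which drive gluconeogenic genes in liver, were lower.

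Across the 16 group means, the members did not form a glycolytic and a gluconeogenic cluster. As a description over groups that differ in depth and in control, Pearson's r was 0.72 for Hk2 with Pfkp, 0.68 for Pfkp with Pkm and 0.66 for Hk2 with Pkm, but 0.03 for Hk2 with Ldhb and 0.10 for Hk2 with Ldha. Among the gluconeogenic members r was 0.58 for G6pc with Fbp1, 0.52 for Pck1 with G6pc and 0.07 for Pck1 with Fbp1. Between the pathways it was −0.49 for Hk2 with Fbp1 and −0.49 for Pkm with Fbp1. The tested genes most like Hk2 over the 16 means were Il1r1 (r = 0.96), Sox9 (0.96) and Stambpl1 (0.95), of which Sox9 is in the list of injured tubule markers. For G6pc they were Slc37a4 (0.89), the transporter that brings glucose-6-phosphate to the G6pc enzyme, Mb21d2 (0.87) and N4bp2l1 (0.87). For Fbp1 they were Spp2 (0.94), Car14 (0.92) and Ass1 (0.91), and for Pck1 they were Glud1 (0.90), the glutamate dehydrogenase, Fam35a (0.88) and Arhgef37 (0.87). Pkm was closest to St14 (0.93), Wfs1 and Tspan9 (0.92 each), Ldhb to Trappc6a (0.88), Mdk (0.87) and Rsph9 (0.86), Hk1 to Il17re (0.88), AI661453 (0.87) and Impa2 (0.85), and Pfkp to Gm527 (0.88), Ucp2 (0.86) and Col4a1 (0.85). Ldha had the lowest values, with Pnp (0.77), Spsb3 (0.76) and Hsd17b7 (0.76).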

How the data were processed

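Poly(A) RNA of whole kidneys was sequenced by the authors with the TruSeq kit v2, unstranded, as paired reads of 100 cycles. Per the submitters' notes the reads were aligned with STAR 2.5.0b to mm10 (GRCm38.p3). The deposited values are FPKM, made by the authors from duplicate-free counts, for 43309 genes. The tool that gave FPKM is not given in the sources used here. Depth was worked out from low FPKM values and gene lengths, and in each library at least 74.0% of low values came within 0.1 of a whole read count.

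Groups came from the sample titles. Genes with at least 1 FPKM in at least 3 libraries were kept (14895). The test was limma 3.58.1 (R 4.3.3, eBayes with trend and robust) on values transformed as log2(FPKM + 0.1), all 49 libraries in 1 fit, with Benjamini-Hochberg adjustment within each comparison and a threshold of 0.05. Fold changes on this scale understate those of low genes such as Hk2. A ratio of means uses FPKM itself. The scripts used Python 3.11.15, pandas 2.3.3 and scipy 1.17.1 and were tested on simulated data for IRI48h against SHAM24h. There limma recovered 73 of 100 genes with a log2 change of 1 and 89 of 100 with a change of 2. It made 10 false calls among 14695 unchanged genes. A gene that was not called can therefore still have changed. SE is the moderated standard error. No label says that replicates were separate litters or operation days. The limma p-values of the fit of all 49 libraries set a difference between groups against the spread between kidneys within groups. That spread was estimated over all 16 groups, not from the 2 groups compared alone.

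The members and the gene lists were chosen with earlier results of these data known. Besides the 9 members, the text names from each pathway list up to 4 called genes that changed most in IRI48h, the 3 genes most like each member over the group means, and marker genes beside a result. A regulator is not reported here and was left out of its list. Alternatives were another normalization, filter, pseudocount, limma setting, set of samples, replicate block, control group, and leaving out each library. Hk2 calls and low values are limited by read number.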

Additional observations from a re-analysis of the deposited data

Results flagged for a closer look

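The effect of IRI relative to its own sham group was compared between times, by limma contrasts of contrasts over the 9 members and 2 pairs of times. Of these 18 tests, 6 passed an adjusted p of 0.05. No share of all genes was worked out for these contrasts, so the count is not read as a result about the members. Between 4 and 24 hours the effect was lower at 24 hours for Fbp1 by −2.10 on the log2 scale (SE 0.20, adjusted p = 6.2e-10), with −2.08 in IRI24h and 0.02 in IRI4h. It was also lower for Ldhb by −0.56 (SE 0.16, adjusted p = 0.0054) and for Hk1 by −0.62 (SE 0.25, adjusted p = 0.043), and the Hk1 value carries the low Hk1 level of SHAM4h.

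Between 24 hours and 12 months the effect was higher at 12 months for G6pc by 2.44 (SE 0.29, adjusted p = 2.3e-07), with −0.50 in IRI12m and −2.94 in IRI24h. It was also higher for Fbp1 by 2.15 (SE 0.20, adjusted p = 1.8e-09) and for Ldhb by 0.70 (SE 0.16, adjusted p = 0.0016). For Hk2 neither test passed, with differences of 0.30 (SE 0.67, adjusted p = 0.76) and −1.15 (SE 0.67, adjusted p = 0.23). In IRI6mN, the group of 4, none of the 9 members held a library far enough from the others to be singled out by Dixon's criterion.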

How the results depend on the processing

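Numbers of members called are given here where they moved by more than 1.5 times. The share of all genes called stands beside them only for the other controls of IRI2h and IRI4h. Without that share they are not read as results about the members. With quantile normalization they were 1 in IRI6mN against NORM9m, and 3 in IRI14d against IRI7d, in NORM9m against NORM3m and in NORM15m against NORM3m. With a pseudocount of 1 FPKM they were 1 in IRI12m against SHAM12m and 2 in IRI14d against IRI7d. Fitted with the 2 groups compared alone they were 4 in IRI4h against SHAM4h, 5 in IRI7d against SHAM24h, 1 in IRI7d against IRI72h, 5 in SHAM24h against SHAM4h, 2 in NORM9m against NORM3m, 1 in SHAM24h against NORM3m, and 0 in IRI4h against IRI2h, IRI72h against IRI48h, IRI14d against IRI7d and IRI28d against IRI14d. With libraries of the same depth set alone, chosen after seeing the data, they were 2 in IRI14d against IRI7d and 0 in NORM9m and NORM15m against NORM3m. With all 9 sham kidneys as control they were 7 in IRI7d and IRI14d, and G6pc turned to −0.46 in IRI48h, −0.75 in IRI7d, −0.89 in IRI14d and −0.36 in IRI28d. Other controls for IRI2h and IRI4h were also chosen after seeing the data. SHAM24h gave 1 member in IRI2h (30.0% of all genes), with Pck1 at 0.30 and G6pc at 0.27. NORM3m gave 2 in IRI2h (41.4%) and 1 in IRI4h (36.8%), with Pck1 at 0.051 and G6pc at 0.47 in IRI2h. The cause of these differences was not tested. Leaving out 1 library gave 2 to 4 members in IRI2h against SHAM4h, 1 to 3 in IRI14d against SHAM24h, 0 to 2 in IRI12m against SHAM12m, 0 to 2 in IRI6mN against NORM9m, 1 to 2 in IRI72h against IRI48h, 0 to 2 in IRI14d against IRI7d, 0 to 2 in IRI28d against IRI14d, 2 to 6 in SHAM12m against NORM15m, 0 to 3 in NORM9m against NORM3m, 1 to 3 in SHAM4h against NORM3m and 0 to 1 in SHAM24h against NORM3m. For the glycolytic minus gluconeogenic level, a pseudocount of 1 FPKM changed the distance from sham to 1.47 in IRI4h, 1.78 in IRI24h and 0.79 in IRI7d, and leaving out Ldhb gave 2.30 in IRI24h. Leaving out Hk2, chosen after seeing the data, gave 1.31 in IRI4h, 1.59 in IRI24h, −0.34 in IRI48h, 0.53 in IRI7d, 0.45 in IRI14d, −0.14 in IRI28d and 0.43 in IRI12m, against 1.73, 2.07, 0.06, 1.09, 0.94, 0.31 and 0.69 with it.

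With the replicate number as a block, the pairing changed 1 call against sham or unoperated kidneys, Ldha in IRI6mN (−0.27, adjusted p = 0.18), and gave 2 members in IRI14d against IRI7d. Samples with the same number did not deviate together (correlations of −0.30 to 0.17 over 12 comparisons, none with every pair over 0.1). No label gives a shared litter or operation day, and these correlations cannot exclude one.

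Depth limits the low values of Hk2 most, down to 9 reads in a NORM3m library. The sham and unoperated comparisons across depth sets cannot separate depth from group.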
